A study of Penicillium oxalicum with 24 samples.

Results

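The genes described here are 6 of the 9832 predicted genes of the fungus *Penicillium oxalicum* in the deposited table, chosen by locus tag and followed through all 8 groups of an RNA sequencing experiment. They are PDE_01302 and PDE_04182, annotated as putative acetyl xylan esterases, PDE_05194, a putative carbohydrate acetylesterase, PDE_06649 and PDE_08238, putative feruloyl esterases, and PDE_09710, a putative β-xylosidase. The names come from the gene descriptions that accompany the study, where PDE_09710 also carries a KEGG assignment as a β-glucosidase. The study asked how the regulators ClrB, CreA and AmyR control the genes for plant cell wall degrading enzymes. It had 24 libraries, 3 per group.

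All strains grew in Vogel's medium at 30 °C, first for 22 h on 2% glucose, then for 2 h without carbon source and then for 4 h in the final medium. The middle step is given by the methods for all cultures, but the labels of the wild-type cultures without carbon source do not list it. The wild-type strain 114-2 spent the last 4 h without carbon source, on 2% glucose or on 2% cellulose. The mutants derived from it, each a single strain, and spent that time on 2% cellulose. They lacked *clrB* (Δ*clrB*), *creA* (Δ*creA*), both (Δ*creA*-Δ*clrB*, here called the double mutant) or *amyR* (Δ*amyR*). In one more strain, Δ*creA-gpdA*(p)::*clrB*, the loss of *creA* was combined with *clrB* under the constitutive *gpdA* promoter of *Aspergillus nidulans*, and it is called the constitutive *clrB* strain below. Each mutant was compared with the same 3 wild-type cultures on cellulose, so these comparisons share their controls.

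Xylan is a chain of xylose units that carries acetyl groups, arabinose and, through the arabinose, ferulic acid. Acetyl xylan esterases and feruloyl esterases cut off these ester-linked groups, which opens the chain to xylanases, and β-xylosidases release xylose from the short oligosaccharides that xylanases leave. In filamentous fungi ClrB and its relatives activate cellulase genes, CreA represses genes for the use of poorer carbon sources when glucose is at hand, AmyR activates amylase genes and XlnR activates xylanase genes.

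The libraries held 6.95 to 8.58 M uniquely mapped reads on genes. Replicates correlated at 0.958 to 0.994 across genes and differed by more than sampling noise in each pair. The labels were borne out by the deleted genes, with 1 to 3 reads of *clrB* (PDE_05999) in the libraries without it against 1930 to 2009 in the wild type on cellulose, 0 to 2 reads of *creA* (PDE_03168) against 2894 to 3601, and 0 to 1 read of *amyR* (PDE_03964) against 2900 to 3045. The 20 most abundant genes took a mean of 10.5% of the reads in the wild type on cellulose, but 24.8% in Δ*creA*, 19.1% in the double mutant, 29.6% in the constitutive *clrB* strain and 17.6% in Δ*amyR*. Levels below are RPKM, reads per kilobase of coding sequence scaled to the total reads of the library, whereas the log2 fold changes are from edgeR with TMM scaling, which sets the scale by the bulk of the genes. With scaling to the library total the median of all genes against the wild type moved to -0.18 in Δ*clrB*, -0.45 in Δ*creA*, -0.43 in the double mutant, -0.74 in the constitutive *clrB* strain and -0.43 in Δ*amyR*, so that in these strains a fitted log2 fold change stands above the ratio of the RPKM values by about that amount.

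Together the 6 genes took 0.227% ± 0.00441 of the reads in the wild type on cellulose (mean ± SD, n = 3). This share was 0.0335% ± 0.00209 without carbon source and 0.00479% ± 0.000537 on glucose. It was 0.237% ± 0.0638 in Δ*clrB*, 0.562% ± 0.0944 in Δ*amyR*, 0.677% ± 0.0609 in the double mutant, 1.71% ± 0.470 in the constitutive *clrB* strain and 1.78% ± 0.0605 in Δ*creA*. The acetyl xylan esterase gene PDE_04182 held 39.3% ± 2.54 of the reads of the 6 genes in the wild type on cellulose and 87.4% ± 2.02 in the double mutant, and the feruloyl esterase gene PDE_08238 held 48.8% ± 8.31 of them on glucose. Outside glucose each gene had at least 97 reads in every library and at least 96.45% of its coding length was covered. In such bulk samples fewer cells with a transcript and less of it per cell cannot be told apart.

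**Figure D1:**
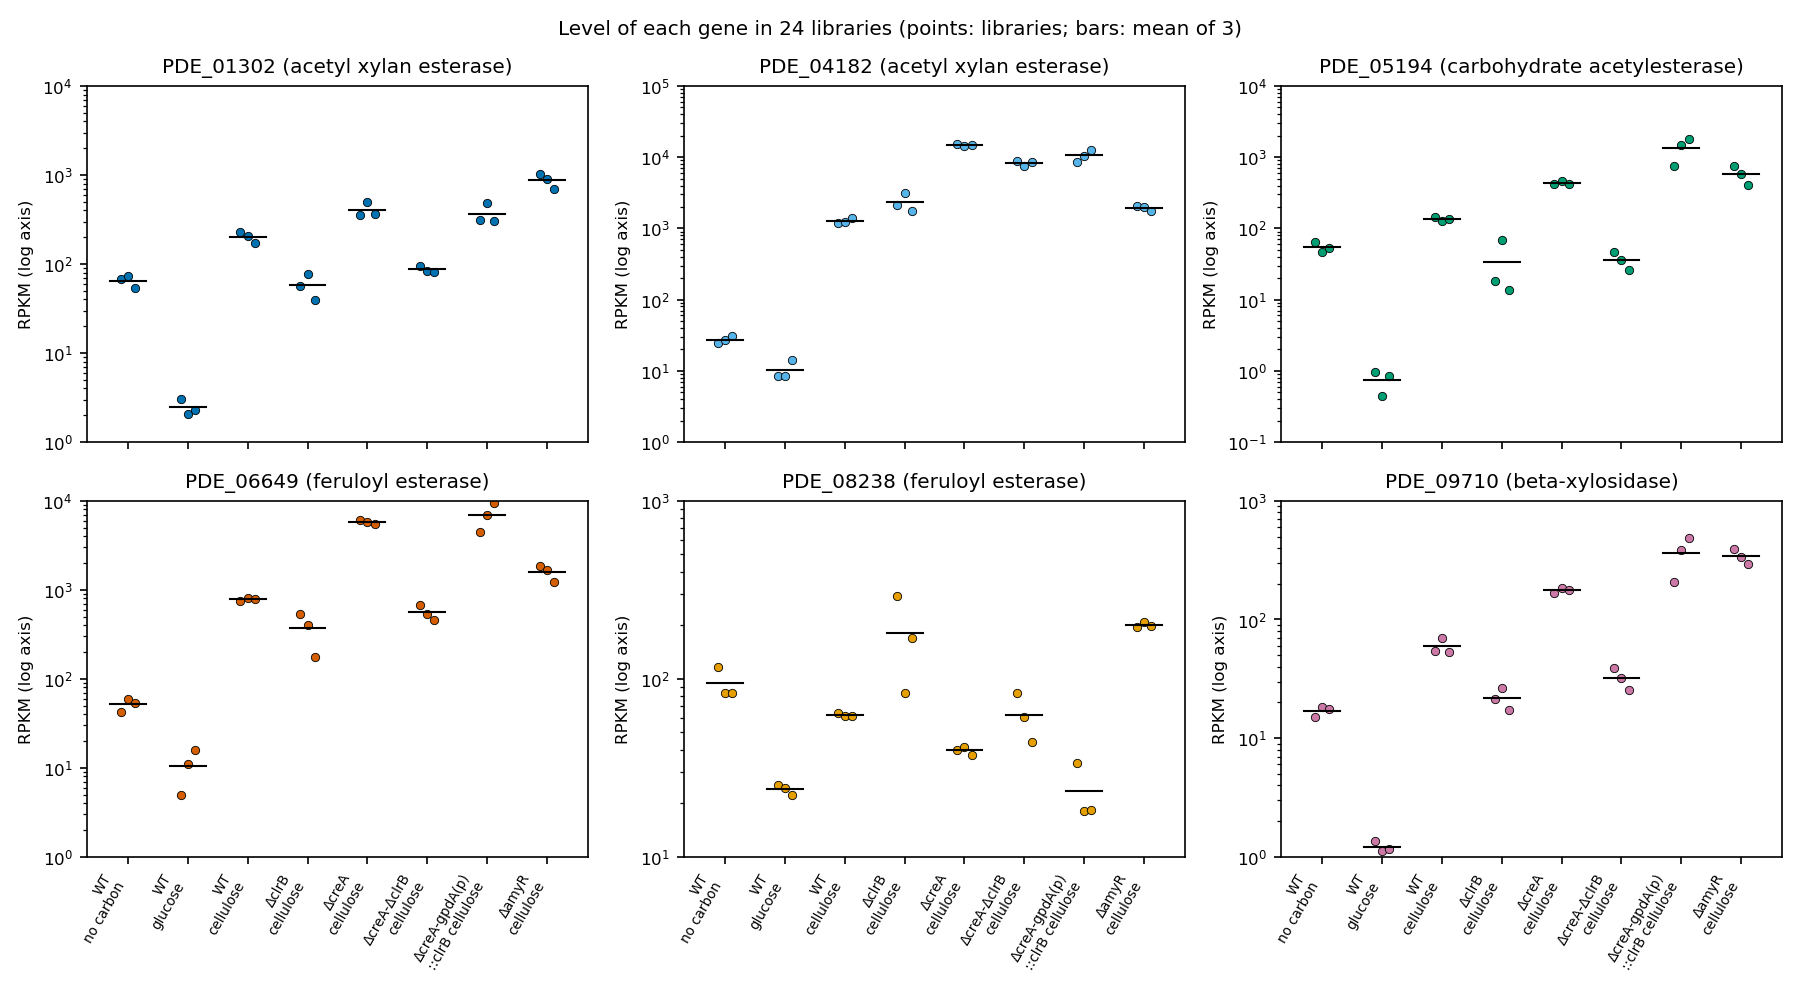
RPKM of the 6 genes (log axis) in each of the 24 libraries (points), with the mean of the 3 libraries of each group (bars). All genes but PDE_08238 stand lowest on glucose, from 0.749 RPKM for PDE_05194 to 10.6 for PDE_06649, while PDE_08238 spans 23.4 to 200.4 RPKM over its group means.

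PDE_04182, a putative acetyl xylan esterase and thus predicted to remove acetyl groups from the xylan chain, reached the highest level per length of the 6 genes. It had 24.8, 27.2 and 30.5 RPKM in the 3 libraries without carbon source, 8.51, 8.53 and 14.0 on glucose and 1189.6, 1233 and 1380.2 on cellulose. Its values on cellulose were 2105, 3178 and 1760.0 in Δ*clrB*, 2087, 1996 and 1745 in Δ*amyR* and 8960.3, 7521 and 8683 in the double mutant. In the constitutive *clrB* strain it had 8598, 10484 and 12711 RPKM and in Δ*creA* 15517, 14574 and 14600.5. Ordered by mean, the groups ran from glucose through no carbon source, wild type on cellulose, Δ*amyR*, Δ*clrB*, the double mutant and the constitutive *clrB* strain to Δ*creA*, a span of 1442-fold, and only Δ*amyR* with Δ*clrB* and the double mutant with the constitutive *clrB* strain overlapped as neighbours. Among all 9832 genes its rank by RPKM was 79 to 106 in the wild type on cellulose and 5 to 7 in Δ*creA*.

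PDE_01302, the other putative acetyl xylan esterase, stood highest in the *amyR* mutant. It had 68.6, 72.4 and 53.2 RPKM without carbon source, 3.06, 2.04 and 2.30 on glucose and 228, 205 and 174 on cellulose. Its values on cellulose were 56.8, 77.8 and 39.8 in Δ*clrB*, 96.2, 83.2 and 81.0 in the double mutant and 311, 485 and 308 in the constitutive *clrB* strain. In Δ*creA* it had 357, 502 and 365 RPKM and in Δ*amyR* 1028, 896 and 692. The group means spanned 353-fold, with glucose lowest, and neighbours overlapped only for Δ*clrB* with no carbon source and for the constitutive *clrB* strain with Δ*creA*.

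PDE_05194, annotated as an esterase that removes acetyl groups from carbohydrates, had the widest span, 1790-fold. It had 64.8, 47.3 and 52.4 RPKM without carbon source, 0.968, 0.443 and 0.834 on glucose and 143, 126 and 134 on cellulose. On glucose these values rest on 7, 3 and 6 reads. Its values on cellulose were 18.0, 69.6 and 13.8 in Δ*clrB* and 46.2, 35.7 and 25.9 in the double mutant, below every wild-type library on cellulose. The second Δ*clrB* library stood far above the other two of its group, a spread of 91.9% as a coefficient of variation. Higher values were found in Δ*creA*, at 418, 465 and 423, in Δ*amyR*, at 747, 585 and 411, and in the constitutive *clrB* strain, at 762, 1479 and 1778. Of neighbours in the order, Δ*clrB* and the double mutant overlapped, as did Δ*creA* and Δ*amyR*.

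PDE_06649, a putative feruloyl esterase, which would split ferulic acid from the arabinose on xylan, was the second most abundant of the 6 on cellulose. It had 42.6, 59.5 and 53.7 RPKM without carbon source, 5.01, 11.0 and 15.8 on glucose and 757, 803 and 784 on cellulose. Its values on cellulose were 539, 399 and 176 in Δ*clrB*, 674, 542 and 459.8 in the double mutant and 1873, 1664 and 1225 in Δ*amyR*. In Δ*creA* it had 6023, 5808 and 5444 RPKM and in the constitutive *clrB* strain 4507, 6982 and 9348, and it ranked 13 to 15 among all genes in the Δ*creA* libraries. The means spanned 655-fold, and only Δ*clrB* with the double mutant and Δ*creA* with the constitutive *clrB* strain overlapped as neighbours.

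PDE_08238, the other putative feruloyl esterase, followed a different order. It had 117, 83.0 and 83.7 RPKM without carbon source, 25.3, 24.3 and 22.2 on glucose and 64.0, 62.2 and 62.1 on cellulose. Its values on cellulose were 33.8, 18.2 and 18.2 in the constitutive *clrB* strain, 39.6, 41.6 and 37.5 in Δ*creA* and 83.0, 61.2 and 44.1 in the double mutant. In Δ*clrB* it had 291, 83.5 and 169 RPKM and in Δ*amyR* 195, 209 and 198. Its lowest group mean was that of the constitutive *clrB* strain and its highest that of Δ*amyR*, only 8.57-fold apart, and 5 of the pairs of neighbouring groups overlapped. The second Δ*clrB* library, the high one for PDE_05194, was here the low one.

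PDE_09710, the putative β-xylosidase, had the lowest mean RPKM of the 6 in the wild type on cellulose, 59.4 ± 9.55 beside 62.8 ± 1.08 for PDE_08238, whose libraries it overlapped (mean ± SD, n = 3). By reads, not scaled to length, PDE_08238 was the lower, with 2.66% ± 0.0984 of the reads of the 6 genes against 6.10% ± 0.939. It had 14.9, 18.4 and 17.6 RPKM without carbon source, 1.36, 1.12 and 1.16 on glucose and 54.1, 70.4 and 53.6 on cellulose. Its values on cellulose were 21.5, 26.5 and 17.3 in Δ*clrB*, 39.1, 32.4 and 25.5 in the double mutant and 168, 184 and 176 in Δ*creA*. In Δ*amyR* it had 395, 339 and 293 RPKM and in the constitutive *clrB* strain 208, 387 and 486. The means spanned 297-fold, and overlaps of neighbours joined no carbon source to Δ*clrB*, Δ*clrB* to the double mutant and Δ*amyR* to the constitutive *clrB* strain.

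On cellulose against no carbon source, which asks what the polymer adds to the absence of sugar, 5 of the 6 genes rose. PDE_04182 rose by 5.71 on the log2 scale (standard error 0.27), 46.2-fold by mean RPKM, and PDE_06649 by 4.10 (standard error 0.39), 15.0-fold by mean RPKM. The others rose less, PDE_09710 by 1.99 (standard error 0.25), PDE_01302 by 1.83 (standard error 0.26) and PDE_05194 by 1.47 (standard error 0.43). PDE_08238 was at -0.42 (standard error 0.31, adjusted p = 0.34) by edgeR, with its 3 libraries on cellulose below all 3 without carbon source by RPKM, and was not called. A gene was called when edgeR's quasi-likelihood test gave a Benjamini-Hochberg adjusted p under 0.05 over the 9176 genes tested and the absolute log2 fold change was above 1. Adjusted p from this edgeR test ranged from 1.9e-12 for PDE_04182 to 0.018 for PDE_05194, and for each of the 5 genes the 3 cellulose libraries lay above the 3 others. Of all genes tested, 3.02% were called higher and 5.22% lower, and 14.6% had all 3 cellulose libraries above and 37.4% below. These calls were 277 higher and 479 lower, and 200 and 741 with scaling to the library total. The call of PDE_05194 rested on single libraries, since its adjusted p from edgeR was 0.073 without the second and 0.066 without the third library of no carbon source and 0.052 without the first on cellulose.

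On cellulose against glucose all 6 genes rose, and on glucose against no carbon source all 6 fell. Against glucose the log2 fold changes were 7.42 for PDE_05194 (standard error 0.64), 6.92 for PDE_04182 (standard error 0.28), 6.33 for PDE_01302 (standard error 0.33), 6.19 for PDE_06649 (standard error 0.43) and 5.58 for PDE_09710 (standard error 0.31). PDE_08238 rose least, by 1.37 (standard error 0.32). Adjusted p from edgeR lay between 6.9e-14 and 0.00073, and the 3 libraries on cellulose lay above the 3 on glucose for each gene. This stands against a background of 22.6% of all genes called higher and 21.7% lower, with 39.1% having all 3 cellulose libraries above and 42.3% below. From no carbon source to glucose, PDE_05194 fell by 5.95 (standard error 0.63), PDE_01302 fell by 4.50 (standard error 0.31) and PDE_09710 fell by 3.59 (standard error 0.30), each from a level 14.0-fold or more above that on glucose by mean RPKM. PDE_06649 fell by 2.08 (standard error 0.37), PDE_08238 fell by 1.79 (standard error 0.32) and PDE_04182 fell by 1.20 (standard error 0.24), with adjusted p from edgeR of at most 0.00014 for all 6. Of all genes 23.1% were called lower on glucose and 19.5% higher, and 43.6% had all 3 glucose libraries below, as the 6 genes had, and 34.8% above. These calls were 1785 higher and 2123 lower, and 1440 and 2427 with scaling to the library total. For PDE_04182 the larger step lay between no carbon source and cellulose, and for PDE_01302 between glucose and no carbon source. With limma on log2(RPKM + 1) the log2 fold changes of the low genes PDE_05194 and PDE_09710 against glucose were 6.28 and 4.76.

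**Figure D2:**
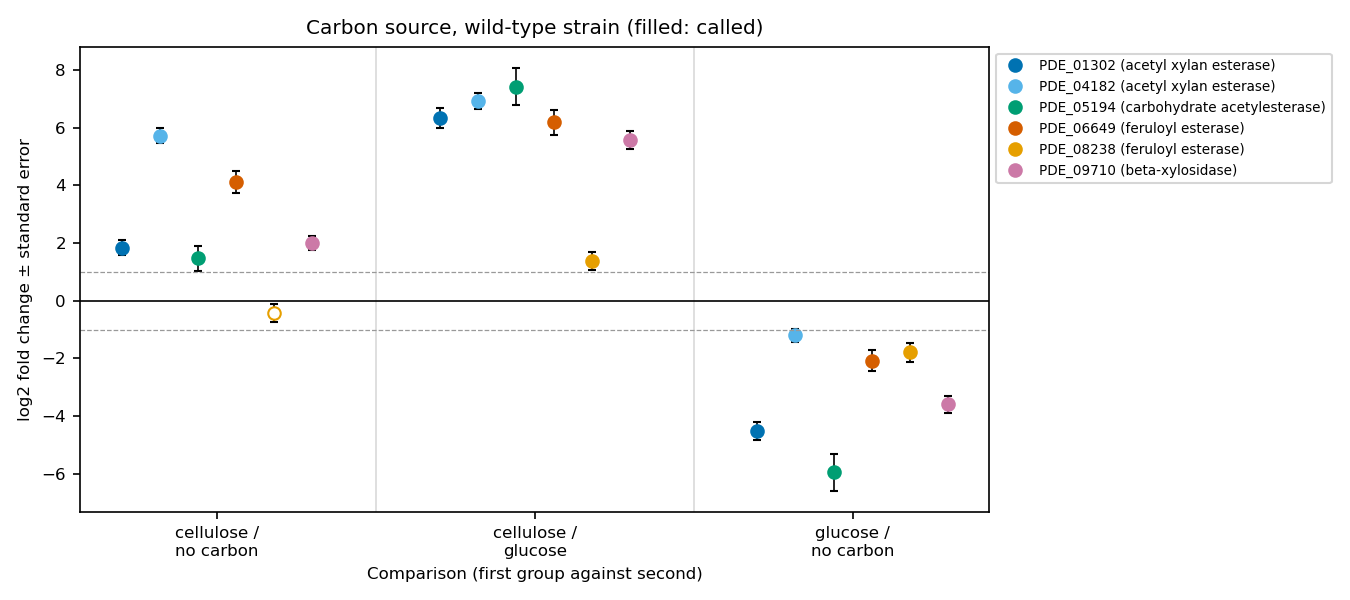
Log2 fold change (edgeR, y axis) of the 6 genes between the media in the wild-type strain, with standard errors (bars), for cellulose against no carbon source, cellulose against glucose and glucose against no carbon source. Filled points passed the test and the dashed lines mark a log2 fold change of 1 in either direction, and PDE_08238 is the only open point, at -0.42.

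Loss of ClrB was examined on cellulose, where the 6 genes split. The acetyl xylan esterase gene PDE_01302 and the β-xylosidase gene PDE_09710 fell, as did the acetylesterase gene PDE_05194, while the acetyl xylan esterase gene PDE_04182 and the feruloyl esterase gene PDE_08238 rose. By mean RPKM the wild type stood 3.48-fold above the mutant for PDE_01302, 3.97-fold for PDE_05194 and 2.73-fold for PDE_09710, and the mutant stood 1.85-fold above the wild type for PDE_04182 and 2.88-fold for PDE_08238. By edgeR the log2 fold changes were -1.81 (standard error 0.44, adjusted p = 0.02) for PDE_05194, -1.62 (standard error 0.26, adjusted p = 0.00052) for PDE_01302 and -1.27 (standard error 0.25, adjusted p = 0.0036) for PDE_09710. For the genes that rose they were 1.69 (standard error 0.31, adjusted p = 0.0022) for PDE_08238 and 1.07 (standard error 0.22, adjusted p = 0.005) for PDE_04182, again by edgeR. PDE_06649 was not called in the edgeR fit, at -0.92 (standard error 0.34, adjusted p = 0.14), although its 3 mutant libraries lay below the 3 of the wild type by RPKM. The paper, which used DESeq and NOISeq, counts PDE_06649 among the hemicellulase genes reduced in Δ*clrB*. Of all genes 1.12% were called lower and 1.70% higher, and 29.5% had all 3 mutant libraries below and 6.10% above, as held for 4 and 2 of the 6 genes. These calls were 103 lower and 156 higher, and 165 and 113 with scaling to the library total, where PDE_04182 was no longer called, at 0.89.

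The spread among the Δ*clrB* libraries bears on several of these values. Without the second Δ*clrB* library the log2 fold change of PDE_05194 was -2.90 with an adjusted p of 4e-05 from edgeR, and that of PDE_04182 was 0.79 and not called. The call of PDE_05194 was lost without any 1 of the other 5 libraries compared, with adjusted p from edgeR between 0.055 and 0.13, and at 0.10 in a fit of these groups alone. In that fit PDE_08238 had an adjusted p of 0.052 from edgeR. With limma on log2(RPKM + 1) PDE_06649 was called lower, at -1.22.

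Loss of CreA raised 5 of the 6 genes on cellulose. PDE_04182 rose by 4.02 (standard error 0.24, adjusted p = 2.5e-10) by edgeR, 11.8-fold by mean RPKM, and PDE_06649 by 3.35 (standard error 0.37, adjusted p = 1.4e-06), 7.37-fold by mean RPKM. PDE_05194 rose by 2.17 (standard error 0.44), PDE_09710 by 2.04 (standard error 0.25) and PDE_01302 by 1.49 (standard error 0.25), with adjusted p from edgeR of at most 0.00088. For these genes all 3 mutant libraries lay above all 3 of the wild type. PDE_08238 stood at -0.20 (standard error 0.31, adjusted p = 0.68) in the edgeR fit and was not called, with its 3 mutant libraries below the wild type by RPKM. Of all genes 6.43% were called higher and 5.46% lower, and 10.2% had all 3 mutant libraries above and 60.3% below. These calls were 590 higher and 501 lower, and 331 and 1385 with scaling to the library total, which left the calls of the 6 genes as they were. The calls also held without any 1 of the libraries compared, and PDE_01302 came just under the fold threshold, at 0.9997, with limma on log2(RPKM + 1).

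**Figure D3:**
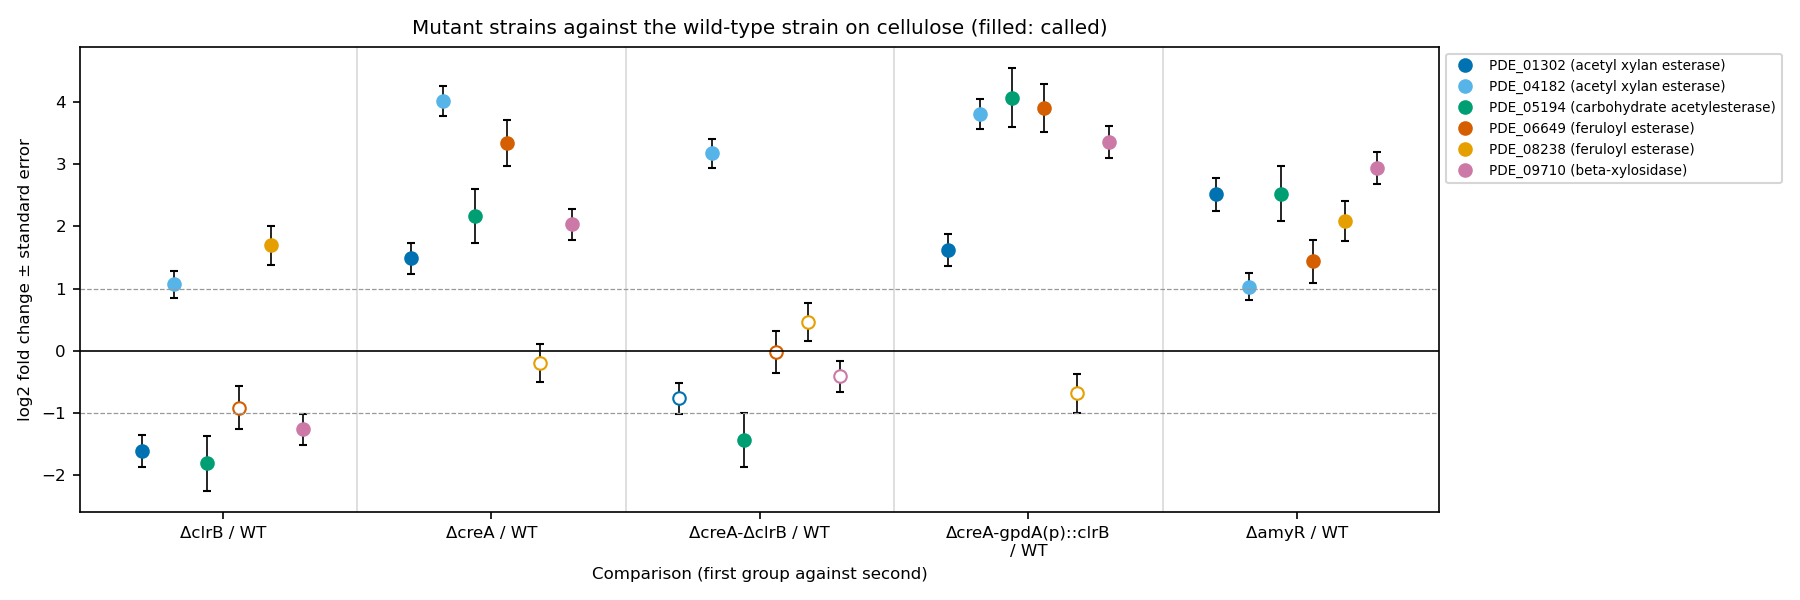
Log2 fold change (edgeR, y axis) of the 6 genes in each mutant strain against the wild type, all on cellulose, with standard errors (bars) and filled points for values that passed the test. In Δ*amyR* all 6 points are filled and above 0, from 1.03 to 2.94, whereas in Δ*clrB* they lie on both sides of 0.

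Without both regulators, in the double mutant, most of the genes stood near or below the wild type. PDE_04182 was the exception, at 3.18 (standard error 0.23, adjusted p = 9.7e-09) by edgeR and 6.62-fold above the wild type by mean RPKM. PDE_05194 fell, at -1.44 (standard error 0.44, adjusted p = 0.012) by edgeR, a call lost without the third double-mutant library at an adjusted p of 0.058 from edgeR. The other genes were not called, with log2 fold changes of -0.77 for PDE_01302, -0.42 for PDE_09710, -0.025 for PDE_06649 and 0.46 for PDE_08238. For PDE_08238 the direction changed with limma on log2(RPKM + 1), to -0.045, but not with single libraries left out. For PDE_06649 it changed without the third double-mutant library, to 0.12. PDE_01302 was called lower with scaling to the library total, at -1.22, and with limma on log2(RPKM + 1) and log2(RPKM + 0.1), at -1.21 and -1.22. Of all genes 9.71% were called higher and 7.12% lower, and 6.83% had all 3 libraries of the mutant above and 49.5% below. These calls were 891 higher and 653 lower, and 467 and 1697 with scaling to the library total.

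The effect of deleting *clrB* was then compared between the 2 backgrounds. Against Δ*creA*, the double mutant had lower PDE_05194, at -3.61 (standard error 0.47, adjusted p = 6.7e-06) by edgeR, and lower PDE_06649, at -3.37 (standard error 0.37, adjusted p = 1.2e-06). It also had lower PDE_09710, at -2.45 (standard error 0.25, adjusted p = 5.3e-07) by edgeR, and lower PDE_01302, at -2.25 (standard error 0.26, adjusted p = 2e-06). PDE_04182 was lower in each library by RPKM but at -0.84 (standard error 0.22, adjusted p = 0.0041) by edgeR did not pass the fold threshold, and PDE_08238 was at 0.66 (standard error 0.31, adjusted p = 0.1). The called genes were 4 of 6 and all lower, where 7.68% of all genes were called lower and 9.45% higher while 22.7% had all 3 libraries below and 21.5% above. None of these calls changed when a library was left out or under the other settings tried.

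The difference between these effects, the interaction, passed the test for 4 of the 6 genes, all with a negative sign. It was -2.45 (standard error 0.49, adjusted p = 0.0021) for PDE_06649, -1.91 (standard error 0.31, adjusted p = 0.00037) for PDE_04182, -1.79 (standard error 0.61, adjusted p = 0.048) for PDE_05194 and -1.19 (standard error 0.34, adjusted p = 0.022) for PDE_09710 on the log2 scale, by edgeR. The effects on PDE_04182 had opposite signs, 1.07 in the presence of *creA* and -0.84, not called, in its absence. PDE_01302, at -0.63, and PDE_08238, at -1.04, were not called, with adjusted p of 0.24 and 0.11 from edgeR. Of all genes 5.65% were called with a negative interaction, 518 genes beside 459 with a positive one, and 355 and 722 with scaling to the library total. The calls of PDE_04182 and PDE_06649 held under every alternative tried. The interaction of PDE_05194 was -0.71 with an adjusted p of 0.30 from edgeR without the second Δ*clrB* library. It also lost its call, at adjusted p of 0.070 to 0.098 from edgeR, without any 1 of the wild-type and Δ*creA* libraries or without the second or the third double-mutant library, and with scaling to the library total, at -1.60. PDE_09710 had an adjusted p of 0.052 to 0.059 from edgeR without the first or the third wild-type, the second Δ*clrB* or the third double-mutant library, and was at -0.998 with scaling to the library total. PDE_08238 was called without the second Δ*clrB* library, at -1.38, or the first double-mutant library, at -1.33.

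**Figure D4:**
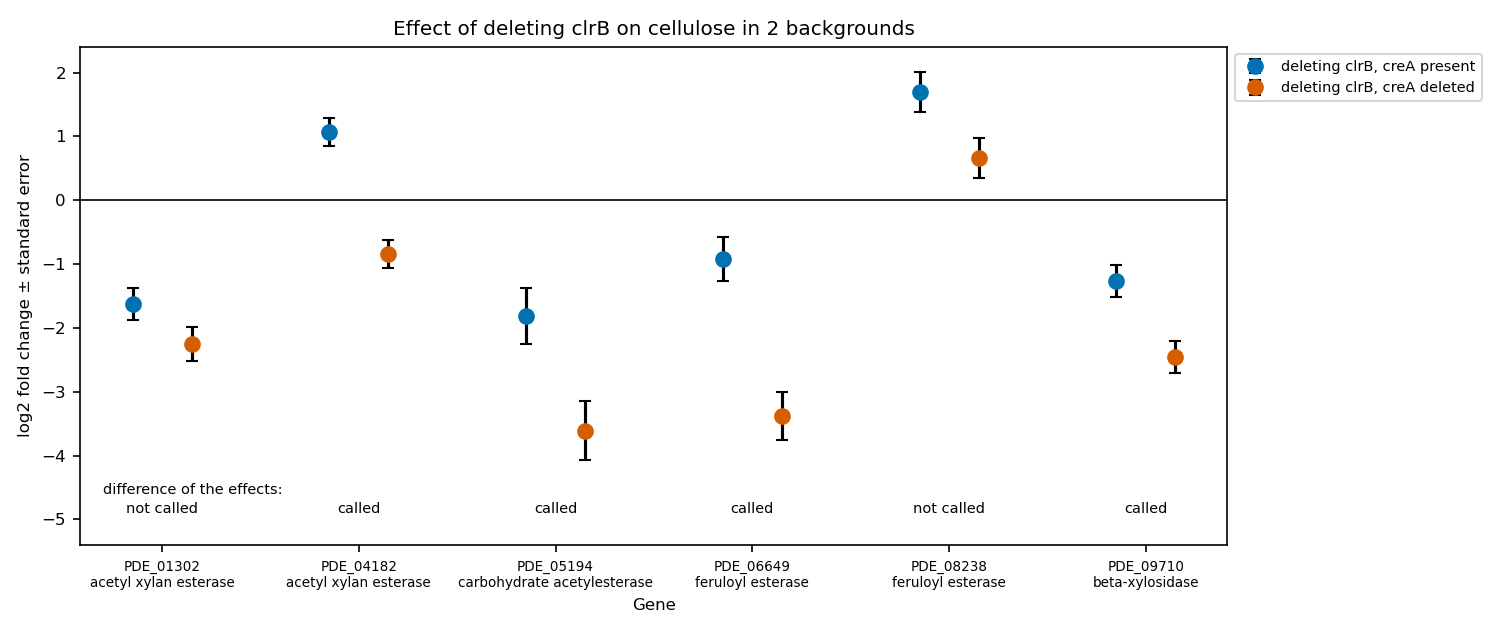
Log2 fold change (edgeR, with standard error) on deleting *clrB* on cellulose for each gene where *creA* is present (Δ*clrB* against wild type) and where it is deleted (double mutant against Δ*creA*), with the call of the difference given under each pair. PDE_06649 moves from -0.92 to -3.37 and PDE_04182 from 1.07 to -0.84.

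Read the other way, deleting *creA* where *clrB* was already absent raised PDE_04182, at 2.11 (standard error 0.22, adjusted p = 1.6e-06) by edgeR, and lowered PDE_08238, at -1.23 (standard error 0.31, adjusted p = 0.0034). PDE_06649, PDE_01302 and PDE_09710 were at 0.89, 0.86 and 0.85 and not called, and PDE_05194 was at 0.37. Of all genes 9.99% were called higher and 7.99% lower, 917 and 733 genes, and 577 and 1249 with scaling to the library total, and 8.93% had all 3 libraries above and 34.4% below. Without the second Δ*clrB* library PDE_05194, PDE_01302 and PDE_09710 were called higher, at 1.46, 1.13 and 1.02, and without the first PDE_06649 was called higher, at 1.20, and PDE_08238 was not called, at -0.80. Without the third double-mutant library PDE_06649 and PDE_09710 were called higher, at 1.04 and 1.01, and in a fit of these groups alone PDE_08238 had an adjusted p of 0.079 from edgeR.

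With constitutive *clrB* in the *creA*-deleted strain, the acetylesterase gene PDE_05194 and the β-xylosidase gene PDE_09710 rose against Δ*creA*, and whether they differed from the other 4 genes was not tested. The *clrB* transcript itself stood at 427 ± 104 RPKM against 104 ± 1.77 in Δ*creA* (mean ± SD, n = 3). PDE_05194 rose by 1.91 (standard error 0.43, adjusted p = 0.0037 from edgeR) and PDE_09710 by 1.32 (standard error 0.24, adjusted p = 0.00072 from edgeR), with all 3 libraries above all 3 of Δ*creA*. PDE_06649, PDE_01302, PDE_04182 and PDE_08238 were not called, at 0.56, 0.14, -0.21 and -0.49, and PDE_01302 was at -0.15 with scaling to the library total. Of all genes 3.27% were called higher and 4.12% lower, 300 and 378 genes, and 155 and 778 with scaling to the library total, and 5.83% had all 3 libraries above and 35.1% below. In the same comparison *xlnR* (PDE_07674) rose by 1.12 (standard error 0.22), from 57.7 ± 5.29 to 103 ± 33.7 RPKM, and *amyR* fell by 2.37 (standard error 0.20), from 124 ± 5.76 RPKM in Δ*creA*. The part of these regulators in the changes of PDE_05194 and PDE_09710 was not tested. With limma on log2(RPKM + 1) PDE_09710 was at 0.94 and on log2(RPKM + 0.1) at 0.95, and it was not called.

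Against the wild type, the constitutive *clrB* strain had 5 of the 6 genes higher. They were PDE_05194 at 4.08 (standard error 0.47), PDE_06649 at 3.91 (standard error 0.38), PDE_04182 at 3.82 (standard error 0.24), PDE_09710 at 3.36 (standard error 0.26) and PDE_01302 at 1.62 (standard error 0.26). By mean RPKM these stood at 9.98, 8.89, 8.36, 6.07 and 1.82 times the wild type in the same order. Adjusted p from edgeR was at most 3.1e-05, and all 3 libraries lay above the wild type. PDE_08238 was at -0.69 (standard error 0.32, adjusted p = 0.078) by edgeR, with its 3 libraries below the wild type, and was not called. It was called lower with scaling to the library total, at -1.42, and without the first constitutive *clrB* library, at -1.004, and PDE_01302 was not called with scaling to the library total, at 0.86. Of all genes 11.3% were called higher and 12.2% lower, and 6.71% had all 3 libraries above and 64.1% below. These calls were 1036 higher and 1120 lower, and 446 and 3152 with scaling to the library total.

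Loss of AmyR, the activator of amylase genes, raised all 6 genes on cellulose. The β-xylosidase gene PDE_09710 rose by 2.94 (standard error 0.26), 5.77-fold by mean RPKM, PDE_05194 by 2.53 (standard error 0.44), 4.33-fold, and PDE_01302 by 2.52 (standard error 0.26), 4.31-fold. PDE_08238, not called in Δ*creA* or the constitutive *clrB* strain, rose by 2.09 (standard error 0.32), 3.19-fold, and PDE_06649 by 1.44 (standard error 0.35), 2.03-fold. PDE_04182 rose least, at 1.03 (standard error 0.22, adjusted p = 0.0024) by edgeR and 1.53-fold by mean RPKM. Adjusted p from edgeR for the others was at most 0.0063, and for each gene the 3 mutant libraries lay above the 3 of the wild type. Of all genes 3.36% were called higher and 4.18% lower, and 6.09% had all 3 mutant libraries above and 57.4% below. These calls were 308 higher and 384 lower, and 150 and 1062 with scaling to the library total, where PDE_04182 was at 0.62 and not called. PDE_04182 was close to the fold threshold and not called without the first or the second Δ*amyR* library, at 0.97 and 0.998, and PDE_06649 came just under that threshold with limma on log2(RPKM + 1).

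The genes that share an annotated activity were also compared within each library, as a ratio of RPKM that no scaling between libraries touches. PDE_04182 stood above PDE_01302 in every library except those without carbon source, where PDE_01302 was 1.74 to 2.77 times higher. The excess of PDE_04182 was 5.23 to 7.94 times in the wild type on cellulose, 37.0 to 44.3 times in Δ*clrB*, 29.0 to 43.4 times in Δ*creA*, 90.4 to 107 times in the double mutant, 21.6 to 41.3 times in the constitutive *clrB* strain and 2.03 to 2.52 times in Δ*amyR*. The *amyR* mutant thus moved the pair the opposite way to the other mutants on cellulose. For the feruloyl esterase genes, PDE_06649 was 11.8 to 12.9 times PDE_08238 in the wild type on cellulose, 140 to 152 times in Δ*creA*, 134 to 513 times in the constitutive *clrB* strain, 8.12 to 10.4 times in the double mutant, 6.20 to 9.63 times in Δ*amyR* and 1.04 to 4.78 times in Δ*clrB*. Without carbon source and on glucose PDE_08238 was the higher of the pair in every library, by 1.40 to 2.75 and by 1.40 to 5.05 times. Without the second Δ*clrB* library, the high one of its group for this pair, the difference in the log2 ratio between Δ*clrB* and the wild type was -3.16 in place of -2.57, and that between the double mutant and Δ*clrB* 2.71 in place of 2.11. The libraries of the compared groups did not overlap in 9 of 11 comparisons for each pair. These comparisons share groups, and how often other pairs of genes separate in this way was not measured, so the count is a description only. With 3 against 3 libraries the exact two-sided permutation test cannot go below 0.10, so none of the 22 tests could pass a threshold of 0.05, and the smallest adjusted p was 0.12.

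**Figure D5:**
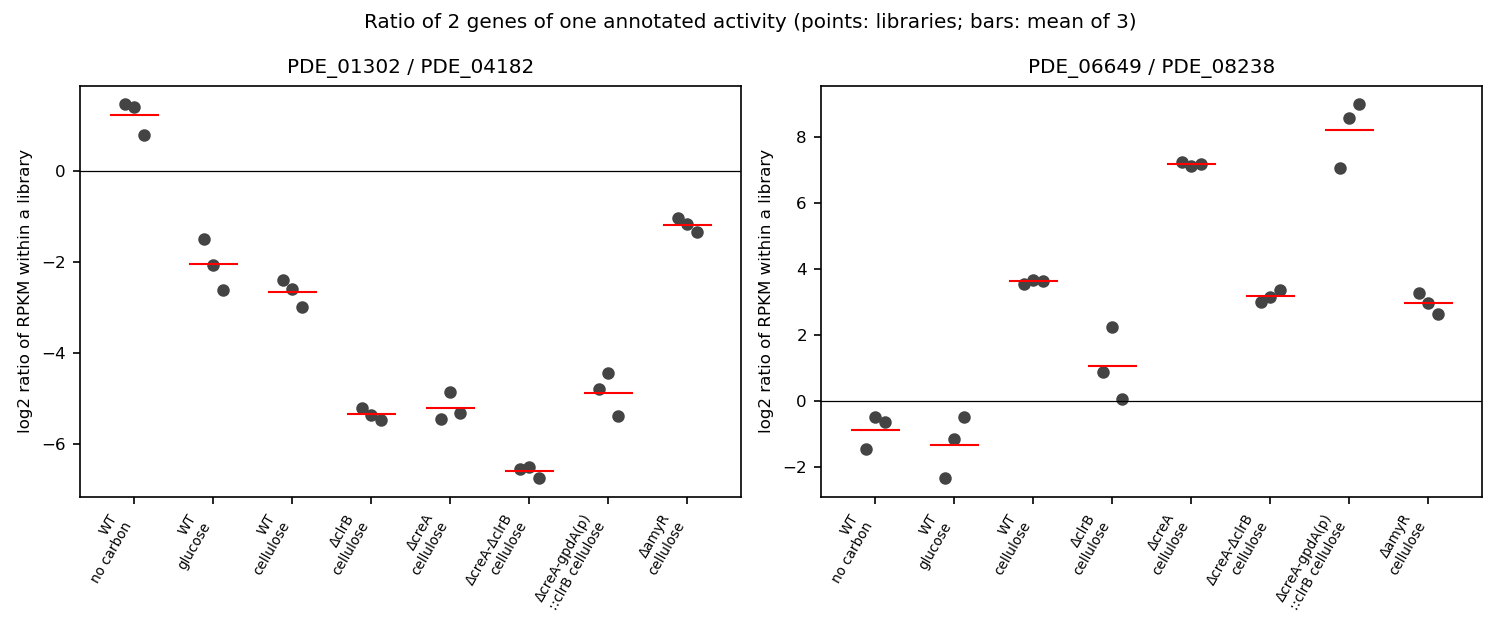
Log2 ratio of RPKM within each library (points) for the acetyl xylan esterase pair PDE_01302 over PDE_04182 and the feruloyl esterase pair PDE_06649 over PDE_08238, with the mean of 3 libraries in each group (red bars). The acetyl xylan esterase ratio is above 0 only without carbon source and lowest in the double mutant, and the feruloyl esterase ratio is below 0 without carbon source and on glucose.

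The likeness of the 6 patterns over the 8 groups was described by Pearson's r between group means of log2 CPM. These are read counts with the TMM scaling of the fold changes, not with the library totals behind RPKM. No test was made, since the points share libraries and a common low on glucose. PDE_05194 and PDE_09710 were the most alike, at 0.984, followed by PDE_01302 and PDE_09710, at 0.982. PDE_08238 was the least like the others, at 0.204 to 0.459. Over the 6 groups on cellulose alone PDE_05194 and PDE_09710 were at 0.981, PDE_01302 and PDE_04182 at 0.261, and PDE_08238 was between -0.578 and -0.0807 with the other genes.

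By the same measure, among all 9176 genes tested, the genes most like PDE_04182 were the xylanase gene PDE_04478 (r = 0.984), the β-xylosidase gene PDE_00049 (r = 0.978) and the acetyl xylan esterase gene PDE_09278 (r = 0.977). Those most like PDE_06649 were the arabinofuranosidase gene PDE_00016 (r = 0.987), PDE_02789 (r = 0.985) and the xylanase gene PDE_02101 (r = 0.983). PDE_09710 was most like the putative α-mannosyltransferase gene PDE_09901 (r = 0.996), PDE_04095 (r = 0.986) and PDE_05194, while PDE_01302 was most like PDE_09710, PDE_09901 (r = 0.977) and PDE_06576 (r = 0.974). PDE_05194 was most like PDE_06786 (r = 0.984), PDE_09710 and PDE_04859 (r = 0.983). This measure follows the shape and not the size of a change, on the TMM scale. PDE_06786 ranged only from 120.4 to 196 RPKM over the groups. By mean RPKM it was lower in the constitutive *clrB* strain than in the wild type on cellulose, at 155 against 196. PDE_05194 was higher there, at 1339 against 134. The likeness by RPKM was not computed. PDE_08238 was most like PDE_06595 (r = 0.983), PDE_05885 (r = 0.973) and PDE_08282 (r = 0.968), none of them annotated as a xylan enzyme in the descriptions used here. Such neighbours were not particular to PDE_08238, since the paper names PDE_04859 a β-glucosidase gene, PDE_06576 a putative maltose permease gene and PDE_04095 StuA.

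The 6 genes were set beside 21 other genes annotated for xylan degradation, namely xylanases, β-xylosidases, arabinofuranosidases, an α-glucuronidase and further esterases. These were drawn from gene lists of the study, many of which were selected on these samples, so their directions are not independent evidence. The 6 genes were not chosen independently of these samples either. In the paper PDE_01302, PDE_05194, PDE_06649 and PDE_09710 are among the genes higher in Δ*amyR*, and PDE_08238 among those higher in Δ*clrB*. It also counts PDE_01302, PDE_06649 and PDE_09710 among the hemicellulase genes lower in Δ*clrB*. PDE_01302, PDE_04182, PDE_06649 and PDE_09710 are in its set of genes higher on cellulose in the wild type. The medians set side by side below are therefore a description only. On cellulose against no carbon source 18 of the 21 rose and 3 were not called, with a median log2 fold change of 3.79 against 1.91 for the 6 genes and 0.0025 for all genes. In Δ*creA* against the wild type 12 rose and 9 were not called, with a median of 1.26 against 2.10 for the 6 genes. In Δ*clrB* 2 rose and the other 19 were not called, with a median of 0.41, where 3 of the 6 genes fell and 2 rose. In Δ*amyR* 8 rose and 13 were not called, with a median of 0.82 against 2.30 for the 6 genes, and the endoxylanase gene PDE_08094 rose most among the genes called, by 2.46 (standard error 0.28). The interaction of *clrB* and *creA* was called negative for 14 and not called for 7 of the 21, with a median of -1.43 against -1.49 for the 6 genes. The xylanase gene PDE_00014 had too few reads for a fold in several of these groups. With it set at the bound of 3 reads a library or left out, the medians of the list were 3.98 on cellulose against no carbon source, 1.26 in Δ*creA*, 0.38 in Δ*clrB* and 0.79 in Δ*amyR*. The median of the interaction was not recomputed. PDE_00014 is among the 14 called negative there, at -9.39. That value rests on 0 reads a library in the wild type on cellulose, 1 to 2 in Δ*clrB* and 0 to 1 in the double mutant.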

How the data were processed

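The authors mapped Illumina reads (CASAVA 1.8 in the submitters' processing notes) with SOAP2 to the predicted transcripts of *P. oxalicum* 114-2. For each gene they deposited a count of its unique reads, the RPKM per coding length and library total, and the coverage as a percent of each gene's length. A dash was read as 0 reads. Reads that map to near-identical genes were not counted, and 0 columns were left unassigned. The authors used DESeq and NOISeq.

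Counts were analysed with edgeR 4.0.16 in R 4.3.3 (TMM, genes reaching an RPKM of 1 in 3 or more libraries, 1 quasi-likelihood fit of all 24 samples with 8 group means), with a call at an adjusted p under 0.05 and an absolute log2 fold change above 1. The libraries held 6.95 to 8.58 M reads, with a common dispersion of 0.0395 (biological coefficient of variation 19.9%). Ratios were tested by exact permutation with scipy 1.17.1. Alternatives were limma 3.58.1 on log2(RPKM + 1) and log2(RPKM + 0.1), DESeq2 1.42.0, median-ratio scaling, scaling to library totals, no low-count filter, the compared groups alone, a replicate block, a ratio of RPKM + 1 and each library left out. The calls of edgeR, limma and DESeq2 were tried on simulated counts for Δ*clrB* against the wild type, with 200 genes changed. That simulation held no interaction, no shift in library composition and no outlying library, so it does not bear on these. For the permutation test only its smallest p of 0.10 was checked. Named were the 6 genes and the regulators *clrB*, *creA*, *amyR* and *xlnR*. Also named were the 3 genes most alike to each of the 6 by Pearson's r (log2 CPM with TMM scaling, prior count 2). Of 21 xylan genes those with a shared activity or extreme changes were named. Members and lists were chosen with earlier results of these data known. Nothing states whether replicates were separate cultures beyond being called biological replicates, so p-values measure the spread between these samples. No sequences are printed, and coordinates were not used here.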

Additional observations from a re-analysis of the deposited data

Results flagged for a closer look

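The effect of deleting *clrB* differed between the Δ*creA* and the wild-type background by a test of the difference itself, the interaction term of edgeR's quasi-likelihood fit, for 4 of the 6 genes. Of all 9176 genes tested, 518 (5.65%) were called with a negative interaction and 459 with a positive one. Of the 21 other xylan degradation genes 14 were called negative, so a negative interaction was not particular to the 6 genes. For PDE_06649 the difference was -2.45, between -0.92 where *creA* was present and -3.37 where it was deleted. For PDE_04182 it was -1.91, between 1.07 and -0.84. For PDE_05194 it was -1.79, between -1.81 and -3.61, and for PDE_09710 it was -1.19, between -1.27 and -2.45. The last 2 calls depended on the setting. For PDE_05194 the difference was -0.71 with an adjusted p of 0.30 from edgeR without the second Δ*clrB* library, and it was not called with scaling to the library total, the compared groups alone, the replicate block or either limma setting. PDE_09710 was not called with scaling to the library total or without any of 4 single libraries, the first or the third of the wild type, the second of Δ*clrB* and the third of the double mutant. Groups of 3 libraries are too small for the check of single outlying values.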

How the results depend on the processing

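Of 72 values for the 6 genes over 12 comparisons, 52 were called, and 39 of these kept their call under all alternatives, with 13 changed in at least 1. Of 1044 alternative values 971 kept direction and call, 48 lost the call, 17 gained it and 8 changed sign. A call needs the adjusted p and the fold change together, so a lost call need not mean a smaller change. None of the values that changed sign was called. They were those of PDE_08238 in the double mutant against the wild type, at -0.045 with limma on log2(RPKM + 1) and -0.046 with limma on log2(RPKM + 0.1), and of PDE_06649 there, at -0.22 to 0.12 with single libraries left out, as well as of PDE_01302 in the constitutive *clrB* strain against Δ*creA*, at -0.15 with scaling to the library total, -0.17 with either limma setting and -0.17 to 0.36 with single libraries left out. The log2 ratio of PDE_06649 to PDE_08238 on glucose against no carbon source ranged from -0.88 to 0.041 with single libraries left out. The count of all genes called rose from 1091 to 1716 in Δ*creA*, from 2156 to 3598 in the constitutive *clrB* strain and from 692 to 1212 in Δ*amyR* with scaling to the library total, and to 1697, 3597 and 1186 with limma on log2(RPKM + 0.1). In Δ*clrB* it was 259, and 135 to 382 with single libraries left out. The cause of these shifts was not tested.

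Replicate numbers did not pair the samples, since same-numbered libraries correlated at -0.178 to 0.397 in their deviations and in none of 11 comparisons were all 3 pairs over 0.1. With the replicate block the counts called moved little, for example to 243 in Δ*clrB* and, for the interaction, from 977 to 915. Only the interaction of PDE_05194 changed its call with the block, to -1.70 at an adjusted p of 0.069 from edgeR. On glucose PDE_05194 rests on 3 to 7 reads a library, which limits the precision of its folds against glucose.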

Other observations

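Genes outside the 6 that carry the same annotated activities were measured too. The acetyl xylan esterase gene PDE_09278 stood at 201 ± 27.0 RPKM in the wild type on cellulose and 266 ± 78.9 without *clrB*, at 3627 ± 349 without *creA*, 711 ± 50.6 in the double mutant, 4929 ± 1579.9 in the constitutive *clrB* strain and 701 ± 219 in Δ*amyR* (mean ± SD, n = 3). It was called higher in Δ*creA* (log2 fold change 4.64, standard error 0.31) and in Δ*amyR* (2.22, standard error 0.28) and was not called in Δ*clrB*, at 0.58. The acetylesterase gene PDE_05342 rose by 1.93 (standard error 0.31) in Δ*amyR* and by 1.26 (standard error 0.31) in Δ*creA*.

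The β-xylosidase genes other than PDE_09710 were more abundant per length in the wild type on cellulose, at 704 ± 66.4 RPKM for PDE_06306, 331 ± 24.5 for PDE_08036, 167 ± 9.76 for PDE_00049, 160.1 ± 19.9 for PDE_08037 and 111 ± 7.13 for PDE_07334. PDE_08036 and PDE_07334 are annotated for arabinofuranosidase activity as well. In Δ*creA* against the wild type these 5 genes were not called in the edgeR fit, with log2 fold changes from -0.45 for PDE_08037 to 0.83 for PDE_00049, beside 2.04 for PDE_09710. In Δ*amyR* PDE_07334 was called higher, at 1.42 (standard error 0.31), and the other 4 were not called.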
